A study of Mus musculus with 4 samples.

Results

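The genes described here were the contractile genes of smooth muscle and of myofibroblasts that use actin filaments, and they were taken from the deposited table by their symbols as Acta2, Actg2, Tagln, Myl9, Cnn1, Cnn2, Tpm1, Tpm2, Cald1 and Flna. All 10 symbols were found, once each, among 55401 genes, and the rule used their names and no expression value. The members were, however, chosen with earlier results of these data known, so counts over them are not a blind test. RNA-seq was done on E14 cells, a mouse embryonic stem cell line (mESCs), with 2 WT libraries and 2 Haspin-KO libraries. Haspin is a kinase that phosphorylates histone H3 in mitosis. The Haspin-KO lines were single clones obtained by co-transfecting a pair of guide RNAs against the Haspin coding sequence, and the labels do not say which clone a library came from. All cells grew in knockout DMEM with serum, LIF and the inhibitors called 2i, with no other treatment. The study's methods place mESCs on mitomycin C-treated mouse embryonic fibroblasts for passage and on gelatin for assays, and do not say which was used for RNA. Nothing states that the 2 libraries of a group came from separate cultures, so the p-values measure only the spread between these libraries, which may be technical.

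The contractile apparatus of smooth muscle is built from actin filaments that slide along myosin. Phosphorylation of the regulatory light chain switches the myosin on, and calponins, caldesmon, transgelin and tropomyosins lie on the actin filament and tune that contact. Many of these genes are targets of SRF, a transcription factor that binds the CArG box and is helped by myocardin or by the myocardin-related factors, which respond to the pool of free actin. The same genes are switched on in activated fibroblasts, and Acta2 is the usual marker of that state. Several members (Flna, Tpm1, Cnn2, Cald1) have forms that many kinds of cells use in their cytoskeleton.

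Because SRF is the factor these genes are known for, their promoters were searched for the CArG box on both strands. RefSeq entries (GRCm38.p6, the build of the deposited positions) of 300 bases, from 250 before the start of the gene to 50 after it, matched 8 of the 10 members, and Cald1 had 2 of them. A CArG box was present in the promoters of Myl9 and Cnn2, and in 1.63% of 32817 mouse promoters of that length. A CArG box with 1 letter different was present in those of Acta2 (2 places), Tpm1 (2 places), Myl9, Cald1 and Flna, and in 19.9% of all promoters. The entries of Cnn1 and Tpm2 held neither form. The letters CATTCC, the core to which TEAD factors bind, were found on either strand in the promoters of Acta2, Tpm1, Cald1 and Flna and in 14.7% of all. TATAAA was found in 1 of the Cald1 entries and in 13.6% of all. The windows below are those of the member with the largest fold change (Acta2) and of the members with an intact box, with the CArG letters in capitals and each sequence written 5′ to 3′ on the strand of its gene.
Acta2, chr19:34255438-34255467 (-), 84 to 75 bases before the start, 1 letter different: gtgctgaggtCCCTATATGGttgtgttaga
Acta2, chr19:34255388-34255417 (-), 34 to 25 bases before the start, 1 letter different: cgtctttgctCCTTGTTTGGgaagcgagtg
Myl9, chr2:156775293-156775322 (+), 161 to 152 bases before the start, intact: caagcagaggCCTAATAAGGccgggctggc
Myl9, chr2:156775355-156775384 (+), 99 to 90 bases before the start, 1 letter different: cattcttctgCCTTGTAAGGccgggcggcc
Cnn2, chr10:79988534-79988563 (+), 56 to 47 bases before the start, intact: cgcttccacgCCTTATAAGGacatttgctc
Tagln and Actg2 had no entry, so their promoters were not searched. Any relation between the boxes and the fold changes was not tested. A match describes letters in a window and not a bound site. The starts used by RefSeq for all these entries lie inside the genes as deposited, which begin farther upstream. The distance was largest for 1 of the Cald1 entries and then for Flna.

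The libraries held 14207828 to 21834847 counts, the WT libraries being the deeper ones, and TMM factors were 0.991 to 1.013. A count of 3, taken as the floor of detection, corresponded to 0.137 to 0.21 CPM, the count scaled by the TMM-adjusted library total, and covers counting error only. Haspin (ENSMUSG00000050107), the targeted gene, had 875 and 619 counts in the WT libraries and 149 and 209 in the Haspin-KO libraries, a log2 fold change of -1.60 ± 0.159 (SE) with an adjusted p of 0.00154. Of 15580 genes tested, 78 were lower and 51 higher in Haspin-KO at an adjusted p below 0.05 with more than a 2-fold change, which is what "called" means below. By this rule 0.501% of the genes tested were called lower and 0.327% higher.

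In the Haspin-KO libraries an actin and 3 genes of actin-binding proteins were lower: 4 of the 10 members (Acta2, Cnn1, Tagln and Tpm2) were called lower and 0 were called higher. Cnn1 passed the filter on low counts only through the WT libraries, and with at least 10 counts required in every library 3 of the 8 members left (Acta2, Tagln and Tpm2) were called. Acta2 fell about 11-fold, from 22.0 ± 4.71 FPKM in WT to 2.05 ± 0.898 FPKM in Haspin-KO (SD, n = 2). Cnn1 fell by 3.09 on the log2 scale, and Tagln and Tpm2 by 1.30 and 1.09. Of the members with general cytoskeletal forms, Tpm1, Cald1 and Flna differed by less than 0.2 on that scale and Cnn2 had a value of -0.52, and none of these 4 passed the test. The median log2 fold change of the members was -0.94, against -0.0039 over all genes tested. With at least 10 counts required in every library it was -0.66 over the 8 members left, against -0.0020 over all genes tested so. Without the minimum fold change the same 4 members passed, where 1.51% of the genes tested passed as lower and 0.988% as higher. For the 0 members called higher, edgeR gave 0 at an unadjusted p under 0.05. DESeq2 called 0 higher of the 8 members to which it gave an adjusted p. Limma called 0 of all 14817 genes it tested, so its 0 carries no weight here.

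**Figure D1:**
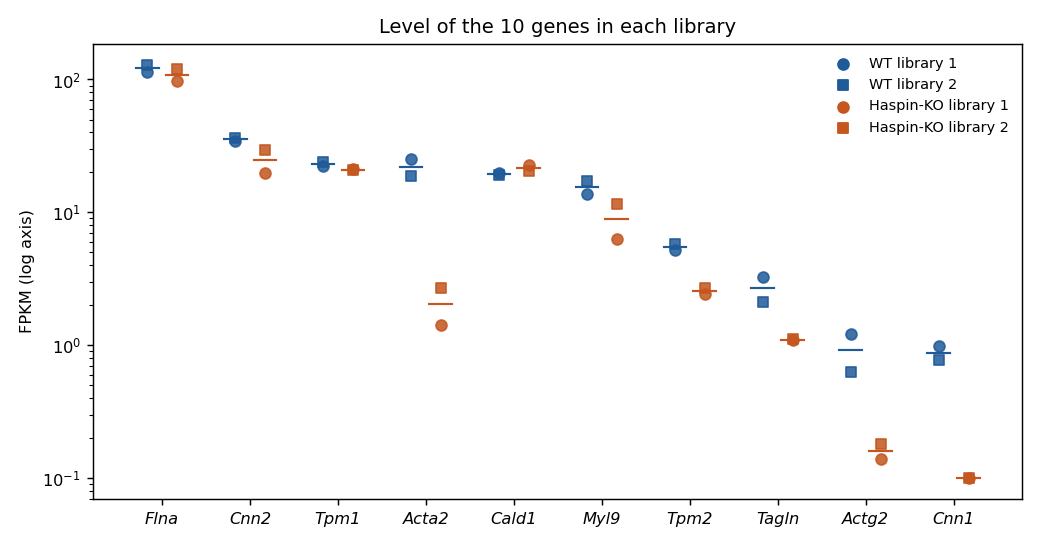
FPKM of the 10 genes on a log axis, with circles for replicate 1, squares for replicate 2 and lines for the group means (2 libraries each). Acta2 was at 25.3 and 18.7 FPKM in WT and at 1.41 and 2.68 in Haspin-KO, whereas the Flna points of the groups overlapped.

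Positions are those deposited (mm10). Acta2 (ENSMUSG00000035783, chr19:34241090-34255590, - strand) encodes smooth muscle α-actin. It had 1215 and 716 counts in the WT libraries and 44 and 85 in the Haspin-KO libraries. Both Haspin-KO libraries lay far below both WT libraries, and within each group the libraries also differed. The log2 fold change was -3.43 ± 0.247 (SE), with a 95% interval of -3.98 to -2.87 and an adjusted p of 0.000183. Over summed counts the WT level was 10.9 times that of Haspin-KO (95% Clopper-Pearson interval 9.15 to 13.2, counting error only). It was called when any single library was left out, with log2 fold changes of -3.99 to -3.02, and was not called by limma on FPKM (adjusted p 0.0821 and 0.108 with the 2 pseudocounts).

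Actg2 (ENSMUSG00000059430, chr6:83512905-83536265, - strand), the enteric smooth muscle γ-actin, had 41 and 17 counts in WT and 3 and 4 in Haspin-KO. Its libraries did not overlap between the groups, but the Haspin-KO libraries were at or just above the floor. The log2 fold change of -2.54 ± 0.565 (SE) came with an adjusted p of 0.0510, so Actg2 was not called. It passed the filter on low counts only through the WT libraries, as did Cnn1. The ratio of the summed counts, WT over Haspin-KO, was 6.06 with an interval of 2.76 to 15.7. Leaving out either Haspin-KO library brought it past the threshold (adjusted p 0.0389 and 0.0290), and leaving out either WT library did not.

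The genes whose products lie on the filament split in level and in change. Cnn1 (ENSMUSG00000001349, chr9:22099216-22109630, + strand), the calponin of differentiated smooth muscle, had 59 and 37 counts in WT and 4 and 4 in Haspin-KO. The groups were far apart, at 0.880 ± 0.156 FPKM (SD, n = 2) in WT and 0.10 FPKM in both Haspin-KO libraries, although both levels were low. Its log2 fold change was -3.09 ± 0.438 (SE) with an adjusted p of 0.00907, and the ratio of the summed counts was 8.77 (interval 4.28 to 20.9). Without WT replicate 1 the adjusted p was 0.0891.

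Tagln (ENSMUSG00000032085, chr9:45929619-45936058, - strand), which encodes transgelin, an early marker of smooth muscle, had 142 and 74 counts in WT and 31 and 32 in Haspin-KO. The Haspin-KO libraries were nearly equal and the WT libraries were not. The log2 fold change was -1.30 ± 0.283 (SE) and the adjusted p 0.0476, close to the threshold. Without WT replicate 1 it was 0.317 and without WT replicate 2 it was 0.0608. Tagln overlaps Pcsk7 and the antisense gene Gm48529 on the opposite strand, and Gm48529 shares 62.4% of the exonic bases of Tagln in GENCODE vM21. Gm48529 itself had 25, 25, 10 and 13 counts in WT replicates 1 and 2 and Haspin-KO replicates 1 and 2, and Pcsk7 had 479, 390, 297 and 281. The strand setting of the count is not given in the sources used here, so reads of Tagln and Gm48529 cannot be told apart. Of the 50-base windows of the Tagln transcripts 58.3% also occurred in another gene, against 0.326% for Acta2 and 0 for the other 8 members.

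Tpm2 (ENSMUSG00000028464, chr4:43514711-43523765, - strand), the β-tropomyosin of muscle and fibroblasts, had 333 and 292 counts in WT and 101 and 114 in Haspin-KO. Its replicates were close in both groups. Its log2 fold change was -1.09 ± 0.155 (SE) with an adjusted p of 0.00908, or 0.0639 without WT replicate 2. Tpm1 (ENSMUSG00000032366, chr9:67022590-67049406, - strand), the α-tropomyosin, had 3188, 2705, 1950 and 1951 counts in the same order as above, and lay at 23.2 ± 0.983 FPKM in WT and 21.0 ± 0.226 FPKM in Haspin-KO. The Haspin-KO libraries were both below the WT ones, but the log2 fold change of -0.15 (95% interval -0.32 to 0.02) did not pass the test (adjusted p 0.292).

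Myl9 (ENSMUSG00000067818, chr2:156775420-156781658, + strand) encodes the regulatory light chain of smooth muscle and nonmuscle myosin. Its counts were 349 and 351 in WT and 104 and 194 in Haspin-KO, and its level was 13.8 and 17.3 FPKM, then 6.30 and 11.6 FPKM. The groups did not overlap, and the Haspin-KO libraries were farther from each other than the WT libraries were. The log2 fold change of -0.79 (95% interval -1.36 to -0.23) had an adjusted p of 0.120. It was called without Haspin-KO replicate 2 (adjusted p 2.62e-05, log2 fold change -1.32).

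Cnn2 (ENSMUSG00000004665, chr10:79988584-79996062, + strand), a calponin of nonmuscle cells, had 1861 and 1549 counts in WT and 689 and 1054 in Haspin-KO. Here too Haspin-KO replicate 1 was the lowest library. The log2 fold change was -0.52 (95% interval -0.88 to -0.16) with an adjusted p of 0.117. It was -0.24 without Haspin-KO replicate 1 (adjusted p 0.303) and -0.87 without Haspin-KO replicate 2 (adjusted p 5.06e-06), under a 2-fold change in both. Flna (ENSMUSG00000031328, chrX:74223461-74249820, - strand), the filamin that crosslinks actin filaments, had 23608, 21342, 12988 and 16249 counts and was the most abundant member per length, at 122 ± 10.6 FPKM in WT and 108 ± 15.8 FPKM in Haspin-KO. Its groups overlapped, and the log2 fold change of -0.18 had a 95% interval of -0.42 to 0.06. Cald1 (ENSMUSG00000029761, chr6:34598500-34775473, + strand), caldesmon, had 5185, 4044, 3857 and 3552 counts. It was the only member whose Haspin-KO libraries both lay above the WT libraries, with a log2 fold change of 0.14 (95% interval -0.03 to 0.30) and an adjusted p of 0.315.

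Both Haspin-KO libraries lay below both WT libraries in CPM for 8 of the 10 members and above them for 1. Over all genes tested 26.9% lay below and 25.3% above in that way. The 8 members include Actg2 and Cnn1, which passed the filter on low counts only through the WT libraries. For these genes the filter itself favours the lower side. Per length, Flna was the highest member in both groups. In WT it was followed by Cnn2 at 35.4 ± 1.01 FPKM, and then by Tpm1, Acta2 and Cald1, of which Acta2 overlapped with each of the others while Tpm1 lay above Cald1. Myl9, Tpm2 and Tagln followed without overlap, and Actg2 and Cnn1 were last, with ranges that overlapped. In Haspin-KO, Acta2 was no longer among the members near 20 FPKM. It was at the level of Tpm2 (2.58 ± 0.191 FPKM), with which its range overlapped, and between Myl9 and Tagln.

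The relatives of the members in the same gene families, which other cells use, served as a comparison per length. Acta2 made up 2.02% and 1.58% of the summed FPKM of 6 actins in the WT libraries and 0.122% and 0.221% in the Haspin-KO libraries. Nearly all the rest was β-actin (Actb, 74.7% and 76.3% in WT, 71.5% and 72.5% in Haspin-KO) and γ-actin (Actg1, 23.0% and 22.0%, then 28.2% and 27.2%). The summed FPKM of the actins was 1179 to 1256 in WT and 1156 to 1213 in Haspin-KO, and these ranges overlapped. The actin genes of skeletal and cardiac muscle, Acta1 and Actc1, were each under 0.13% of the family in every library. Their log2 fold changes of -0.46 and -0.32 had wide 95% intervals (-1.68 to 0.77 and -1.72 to 1.09).

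**Figure D2:**
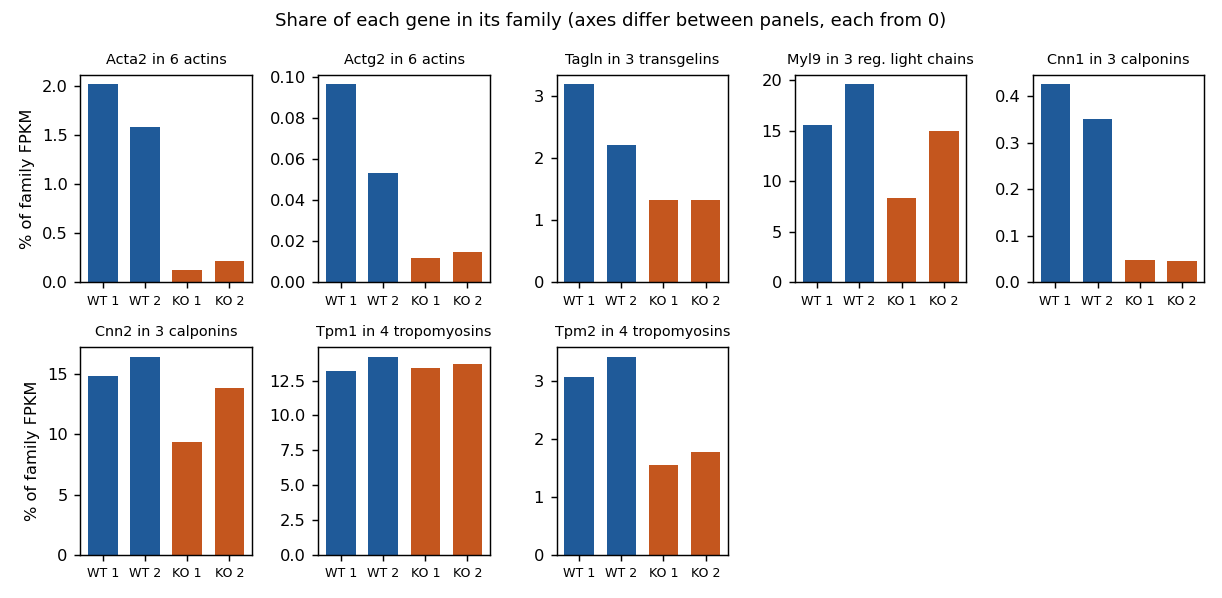
Share of 8 members in the summed FPKM of their family, in percent, in each library (bars from 0, scales differ between panels). The bars of Acta2, Cnn1 and Tpm2 are lower in both Haspin-KO libraries than in both WT libraries, and those of Tpm1 are at 13.2% to 14.2% in all 4.

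In the other families the smooth muscle member was likewise the minor one. Cnn1 made up 0.425% and 0.351% of the calponins in WT and 0.0475% and 0.0466% in Haspin-KO, with Cnn3 at 83.2% to 90.6%. Tpm2 made up 3.07% and 3.42% of the tropomyosins in WT and 1.54% and 1.78% in Haspin-KO. Tagln made up 3.19% and 2.21% of the transgelins in WT and 1.32% and 1.33% in Haspin-KO, where Tagln2 held 93.2% to 95.7%. Myl9 was a larger part of its family, at 15.6% and 19.6% of the regulatory light chains in WT and 8.41% and 15.0% in Haspin-KO. None of the 12 relatives reported here was called. Their log2 fold changes ran from -0.46 (Acta1) to 0.26 (Actg1, adjusted p 0.0966).

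**Figure D3:**
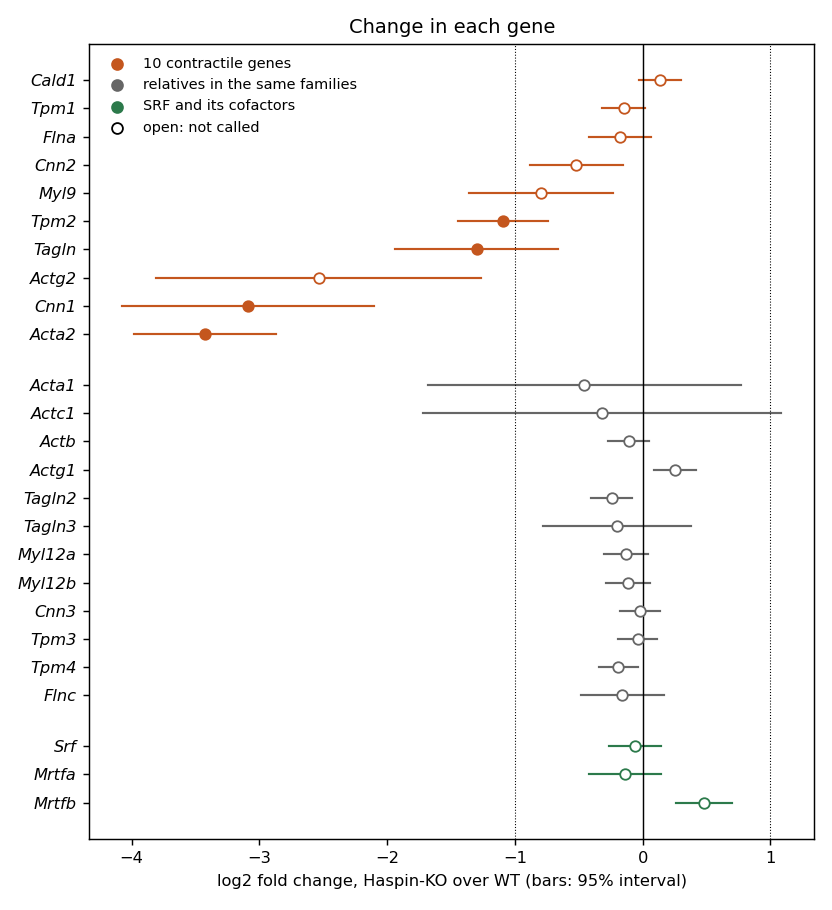
Log2 fold change of Haspin-KO over WT with 95% intervals from edgeR (2 libraries a group), for the 10 genes, for their relatives and for Srf, Mrtfa and Mrtfb, with filled points for called genes and dotted lines at a 2-fold change. The filled points are Tpm2, Tagln, Cnn1 and Acta2, from -1.09 to -3.43, while the points of the relatives lie between -0.46 and 0.26.

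The factors upstream of these genes were read from a list of 14 regulators (SRF and its cofactors, small GTPases and the kinases they act through, LIM kinases, cofilin and Fhl2). Of the 13 tested, 0 were called in either direction by edgeR, while 3 lower and 4 higher had an unadjusted p under 0.05. DESeq2 called 0 of the 12 to which it gave an adjusted p. Limma called no gene at all, so its result says nothing about this list. The share of all genes at an unadjusted p under 0.05 is not given, here or below. Srf was at 20.6 ± 0.0495 FPKM in WT and 19.8 ± 1.29 FPKM in Haspin-KO, with overlapping groups and a log2 fold change of -0.06 (95% interval -0.26 to 0.14). Mrtfa, a cofactor of SRF that free actin holds in the cytoplasm, had a log2 fold change of -0.14 (95% interval -0.42 to 0.15). Mrtfb, its relative, was higher in Haspin-KO, at 4.74 ± 0.318 FPKM against 3.38 ± 0.0566 FPKM in WT, with a log2 fold change of 0.48 and an adjusted p of 0.0368, which is under a 2-fold change. Myocd, the cofactor that defines smooth and cardiac muscle, had 2, 2, 4 and 1 counts and was not tested.

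Of 35 partner genes (other actins, myosin chains, tropomyosins, calponins, and the proteins of stress fibres and focal adhesions), 0 were called in either direction by edgeR. DESeq2 called 0 of the 29 to which it gave an adjusted p, and limma called no gene of any kind. In edgeR 9 lower and 3 higher had an unadjusted p under 0.05, counts that cannot be set against the share of all genes, which is not given. Only Myl6 (lower, log2 fold change -0.46, adjusted p 0.0279) and Lpp (higher, 0.48, adjusted p 0.0388) passed an adjusted p of 0.05 with no minimum fold change, and both are named here after their values were seen. Myl6 encodes the essential light chain of smooth and nonmuscle myosin, and Lpp a protein of focal adhesions. The median log2 fold change of the partners was -0.11 and that of the regulators 0.05. Mylk, the kinase that phosphorylates the regulatory light chain, and Fhl2, a LIM protein that binds SRF, were likewise picked with their values known. Mylk had 46, 22, 12 and 11 counts, with a log2 fold change of -1.08 and an adjusted p of 0.181. Fhl2 had 38, 34, 14 and 12 counts, with a log2 fold change of -1.02 and an adjusted p of 0.152.

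Markers of cell types were read beside the members. The 9 pluripotency markers (Pou5f1, Nanog, Sox2 and others) were abundant in every library, at a sum of 6597 and 6856 CPM in the WT libraries and 6206 and 6378 CPM in the Haspin-KO libraries, and 0 of them were called. Of the defining genes of smooth muscle, Myocd was near the floor, with at most 4 counts, and the smooth muscle myosin Myh11 had 28, 8, 9 and 12 counts. Lmod1 had 39, 17, 23 and 18 counts and Synpo2 had 36, 27, 16 and 16. Des, the muscle intermediate filament desmin, had 373, 293, 203 and 194 counts and made up most of the sum. The 5 smooth muscle markers summed to 16.9 to 21.9 CPM over the 4 libraries, with each WT library above both Haspin-KO libraries, with 0 of the 4 tested called. The 5 cardiac markers summed to 6.52 to 10.3 CPM in WT and 6.37 to 7.24 CPM in Haspin-KO, with 0 of the 4 tested called. DESeq2 also called 0 genes of these 3 lists, but gave an adjusted p to only 1 smooth muscle marker and 1 cardiac marker. Limma called no gene at all and so adds nothing here. At an unadjusted p under 0.05 edgeR had 3 pluripotency markers, 1 smooth muscle marker and 0 cardiac markers lower, and 0 higher.

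Fibroblast markers, in contrast, moved with Acta2. Summed over the 15 genes of the list, the WT libraries held 158 and 118 CPM and the Haspin-KO libraries 21.0 and 16.1 CPM. Of the 11 tested, 7 were called lower and 0 higher, where 0.501% of all genes tested were called lower and 0.327% higher. Of the 11, 5 passed the filter on low counts only through WT (Col1a2, Col3a1, Postn, Prrx1 and Loxl1). That filter favours a lower call, and all 5 are among the 7. The other markers called were Col1a1 and Fbln2. Col1a1 had 1063 and 575 counts in WT and 24 and 24 in Haspin-KO, Col1a2 had 645 and 419 against 7 and 7, and Postn, a matrix protein of activated fibroblasts, had 171 and 77 against 0 and 0. Other defining genes were scarce in every library, since Lum was at 0 throughout and Dcn had 4, 2, 0 and 0 counts. Twist1, Pdgfra and Thy1 were not called. In these bulk libraries fewer cells of a type and less RNA per cell cannot be told apart, and the part of fibroblasts in the result for the members was not tested.

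**Figure D4:**
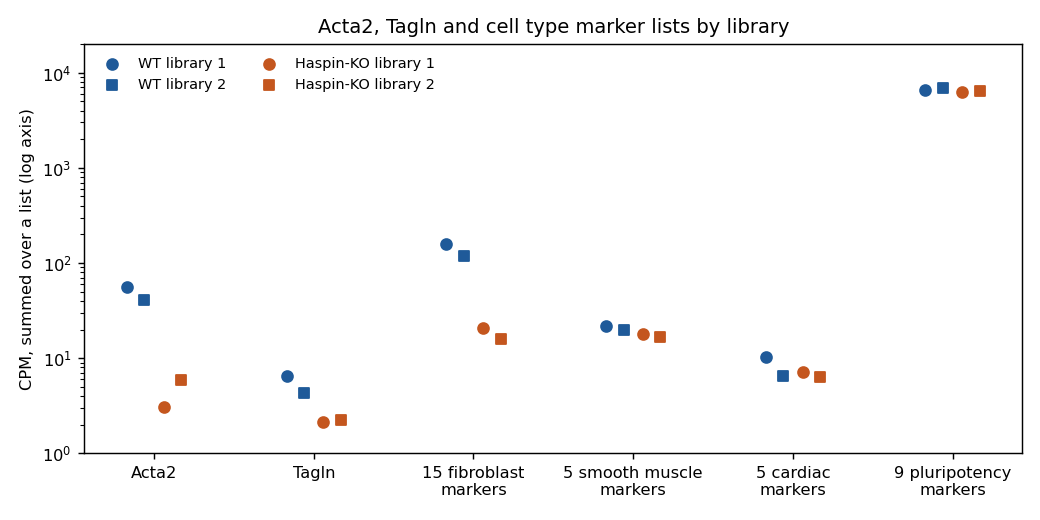
CPM of Acta2 and Tagln and CPM summed over 4 lists of cell type markers in each library, on a log axis. The fibroblast sum is lower in both Haspin-KO libraries (16.1 and 21.0 CPM) than in both WT libraries (118 and 158 CPM). The pluripotency sums lie closer together, with both Haspin-KO libraries (6206 and 6378 CPM) below both WT libraries (6597 and 6856 CPM).

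The 5 genes whose profile over the 4 libraries was nearest to that of Acta2 were Loxl2, Prss23, Bgn, C1qtnf3 and Inhba. They were taken from 14168 genes with a mean of at least 1 CPM, by the Euclidean distance of log2(CPM + 0.5) centred on the mean of each gene, with distances of 0.372 to 0.683. Loxl2, which crosslinks collagen, had 10.8 and 7.38 CPM in WT and 0.139 and 0.420 CPM in Haspin-KO. Bgn, the matrix proteoglycan biglycan, had 1.25 and 1.54 CPM in Haspin-KO against 28.4 and 18.0 CPM in WT. Inhba, a subunit of activin, had 5.77 and 5.19 CPM in WT and none in Haspin-KO. Each of the 5 had a larger log2 fold change than Acta2 (-4.05 to -9.54 against -3.43), so their nearness depends in part on the 0.5 added. None of the 5 was on the fibroblast list, but it is short, so this says little about the cells they came from.

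The 2 libraries of a group can be compared with each other for counting error only, and there the members took different sides. In WT the level of Acta2 in replicate 1 was 1.35 times that in replicate 2 (interval 1.23 to 1.48), that of Tagln 1.52 times (1.14 to 2.05) and that of Actg2 1.91 times (1.06 to 3.59). The ratios of Col1a1 (1.47, interval 1.32 to 1.63), Fbln2 (1.49, interval 1.33 to 1.68) and Postn (1.76, interval 1.34 to 2.34) were on the same side. Of the 14 fibroblast markers with a count in WT, 10 were higher in replicate 1, and 5 had an interval above 1 and 0 below. Col3a1, with 152 and 132 counts, had a ratio of 0.914 (interval 0.719 to 1.16). Myl9 (0.789, interval 0.678 to 0.918), Flna (0.878, interval 0.862 to 0.894) and Tpm1 (0.935, interval 0.888 to 0.985) were lower in WT replicate 1. So 3 of the 10 members had an interval above 1 and 3 below 1. Over the genes tested 2306 of 15580 were above and 2544 below, and 7801 were higher in replicate 1. The 35 partner genes leaned to the same side as the fibroblast markers. Of these partners 28 were higher in WT replicate 1, with 16 intervals above 1 and 3 below.

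**Figure D5:**
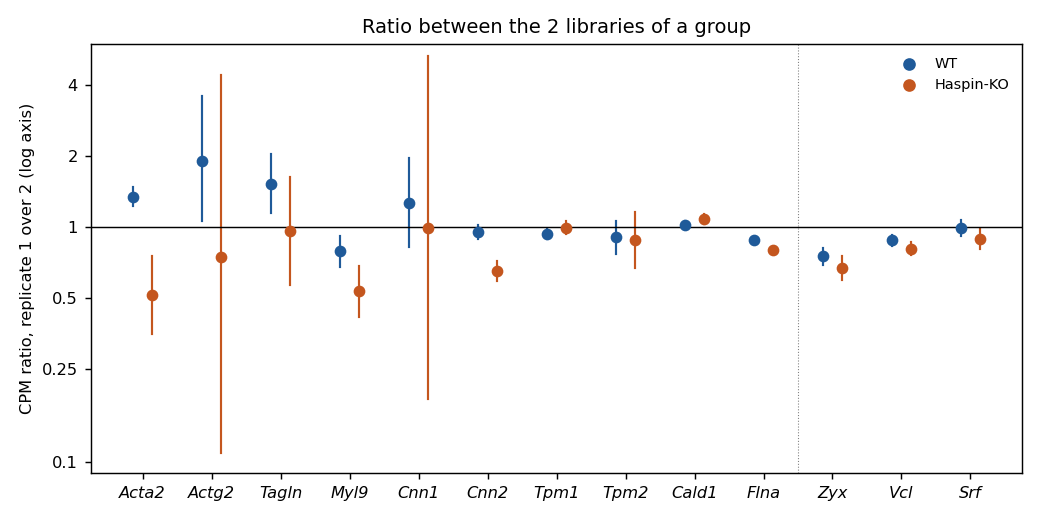
Ratio of CPM in replicate 1 to replicate 2 within WT and within Haspin-KO, on a log axis, for the 10 genes and for Zyx, Vcl and Srf, with 95% Clopper-Pearson intervals for counting error. Acta2 is above 1 in WT (1.35) and below 1 in Haspin-KO (0.515), and Myl9, Flna, Zyx and Vcl are below 1 in both groups.

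In Haspin-KO the ratio of Acta2 was turned, at 0.515 (interval 0.349 to 0.749), so that replicate 2 had the higher level. Myl9 (0.533, interval 0.416 to 0.680), Cnn2 (0.650, interval 0.589 to 0.716) and Flna (0.795, interval 0.776 to 0.813) were also lower in Haspin-KO replicate 1, and Cald1 was higher (1.08, interval 1.03 to 1.13). Of the 15580 genes tested 2034 had an interval above 1 in Haspin-KO and 2270 below, against 1 and 4 of the 10 members. Of the 10 fibroblast markers with a count in Haspin-KO, 2 had an interval above 1 (Pdgfra at 2.86 and Thy1 at 2.30) and 0 below. Col1a1 had 24 and 24 counts, Col1a2 7 and 7, Fbln2 19 and 8 and Loxl1 7 and 9 in replicates 1 and 2. Zyx and Vcl, genes of focal adhesions that were chosen with their values known, were lower in replicate 1 of both groups. The ratios were 0.750 and 0.668 for Zyx and 0.877 and 0.809 for Vcl, in WT and in Haspin-KO. Most of the partner list they come from went the other way in WT, where 28 of 35 were higher in replicate 1. Only 3 of its intervals were below 1 in WT, against 16 above. In Haspin-KO 18 of the 35 were higher in replicate 1, with 5 intervals above 1 and 8 below. Srf was at 0.990 in WT (interval 0.912 to 1.07) and 0.892 in Haspin-KO (interval 0.809 to 0.984).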

How the data were processed

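RNA was extracted with TRIzol and libraries were made with the SMARTER mRNA-Seq kit. The authors trimmed the reads with Cutadapt (1.9.1), mapped them to mm10 with Hisat2 (2.0.1) and deposited raw counts per gene, and the submitters' processing notes also name HTSeq (0.6.1) and DESeq2. The strand setting, the annotation release and the treatment of multi-mapped reads are not given in the sources used here. The deposited FPKM equal counts divided by exonic length and library total in 100% of values within rounding. The members and gene lists were chosen with earlier results of these data known. Counts of all genes were tested with edgeR (4.0.16, R 4.3.3) with filterByExpr (in effect 0.627 CPM in at least 2 libraries), TMM, the quasi-likelihood test and Benjamini-Hochberg adjustment over 15580 genes. DESeq2 (1.42.0), limma (3.58.1) on log2(FPKM + 0.1) or log2(FPKM + 1), other normalizations and filters, thinning, a block and leaving out libraries were alternatives. Scripts were tested on simulated data. Intervals of ratios were Clopper-Pearson at 95%. The genes named were the members, Haspin, the called genes of the regulator and partner lists, the members' relatives in their gene families, Srf, Mrtfa, Mrtfb and Myocd, the marker genes by summed level and defining genes, the 5 genes nearest to Acta2 and the genes overlapping a member. Genes outside this rule are said to be so. Of the relatives, 1 is not reported here, and shares in its family were not computed.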

Additional observations from a re-analysis of the deposited data

How the results depend on the processing

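No log2 fold change of a member changed sign under the alternatives, and the median of the members stayed between -1.26 and -0.66. Acta2 was called in all settings except both with limma. Limma called 0 members, and 0 members had an adjusted p under 0.05 with either pseudocount, although 7 had an unadjusted p under 0.05 with log2(FPKM + 0.1). Limma also called 0 of 14817 genes in all. When each library was left out in turn, 2 to 6 members were called lower and 2 to 8 had an adjusted p under 0.05, the low values coming from leaving out either WT library (a lone library was taken to vary like the other group). With no filter 7 members had an adjusted p under 0.05. DESeq2 called 3 of the 8 members to which it gave an adjusted p. Over all genes edgeR called 140 lower and 125 higher with no filter, 36 lower with at least 10 counts in every library, and 37 to 150 lower and 17 to 157 higher when a library was left out; DESeq2 called 46 lower. With the replicate number as a block, 5 members were called lower, 8 had an adjusted p under 0.05, and 2 genes of the partner and regulator lists were called (Mylk and Fhl2), while the calls over all genes rose to 167 lower and 240 higher and 11.2% of all genes passed an adjusted p of 0.05 as lower and 11.4% as higher. The libraries share only a number: the differences between replicates correlated at 0.338 across genes between WT and Haspin-KO, with only 2 pairs and 1 residual degree of freedom. The adjusted p of Actg2 ran from 0.00011 to 0.366 and that of Tagln from 4.7e-06 to 0.317. Scaling by library totals kept all 20 replicate ratios within their intervals, and leaving out gene length moved 12 of 16 family shares by more than the SD between libraries. The Haspin-KO counts of Actg2 and Cnn1 limit those ratios most.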
